A study of Arabidopsis thaliana with 18 samples.

Results

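The pentatricopeptide repeat (PPR) genes described here are the nuclear genes of Arabidopsis thaliana on chromosomes 1 to 5 whose description in the deposited table contains the word pentatricopeptide and whose mean level over all 18 libraries was at least 1 TPM (a relative transcript level that corrects for length and makes all library totals equal). Of 264 genes with that word, 230 met the level and 34 did not, among 37916 genes in the table and 21831 genes that reached the same level. Just below the limit were AT1G52640, AT1G64100 and AT4G01030 with 0.889, 0.966 and 0.978 TPM, and just above it were AT5G06400, AT5G43820 and AT3G21470 with 1.11, 1.13 and 1.17 TPM. A further 216 genes above the limit carry a PPR name in Swiss-Prot but another description, and they are not members.

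Whole seedlings of 2 genotypes were compared, prmt5 (labelled as a T-insert in PRMT5, an arginine methyltransferase that acts on splicing factors among other proteins) and WT. Each genotype was sampled at 22 °C, at the end of 3 days at 37 °C (called heat) and 24 h after the same heat ended (called recovery), with 3 libraries in each of the 6 groups. The study asked which genes respond to heat differently without normal PRMT5. The labels name 1 mutant line and give no plant age, recovery temperature or statement that libraries came from separately grown plants, so p-values here reflect how far libraries of 1 group differ, a spread that may be technical.

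PRMT5 (listed as SKB1, AT4G31120) averaged 3.39 ± 1.10, 6.65 ± 1.93 and 3.79 ± 0.350 TPM in prmt5 and 26.3 ± 1.08, 45.9 ± 1.75 and 39.8 ± 1.08 TPM in WT at 22 °C, heat and recovery (SD, n = 3). The groups did not overlap in any condition, so the libraries matched their genotype labels. Transcripts encoded in the mitochondrial genome took 0.00970%, 2.33% and 0.457% of TPM in prmt5 and 0.00666%, 2.27% and 0.0984% in WT in the same order of conditions, and their part in the results was not tested, while leaving out organelle and ribosomal RNA genes kept all 18 counts of members given below within 1.5 times. TPM holds no sequencing depth, so depth is unknown and no counting interval is given. In whole seedlings, fewer cells of a type and less RNA per cell cannot be told apart.

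PPR proteins are encoded in the nucleus and bind RNA in chloroplasts and mitochondria, where each recognises a short sequence through a tract of helical repeats. P-class members mostly stabilise, splice or help translate organelle transcripts. PLS-class members mostly direct C-to-U RNA editing, and many end in an E domain or in a DYW domain, which carries the deaminase. They form 1 of the largest gene families of plants, with most members weakly expressed and without introns, and loss of a member often gives pale plants, slow growth or arrested embryos.

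The 230 members were weakly expressed. Their mean level over the 18 libraries ran from 1.11 to 78.1 TPM with a median of 5.40 TPM, against a median of 14.9 TPM over all genes tested. In the RefSeq annotation of TAIR10.1, 130 members (56.5%) have 1 exon, against 16.1% of all genes tested. The Swiss-Prot name places 72 members in mitochondria and 33 in chloroplasts and gives no place for the others. A DYW domain is annotated for 39 members, an E domain without DYW for 44, and neither for 147. No PPR domain is annotated for 7 members, among them DYW1, which has the DYW domain alone, and AT5G43822, whose domain belongs to another family. A level below is uncertain for 7 members that share over 50% of their 50-base windows with another gene, since reads from such copies can be split between them, and for the 82 that overlap another gene, since the counting is not stated to use strand.

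The promoters of 4 members named below are shown as the 120 bases upstream of the annotated gene in RefSeq TAIR10.1, 5′ to 3′ on the gene's strand. No annotated exon overlaps any of these windows. Capitals mark matches on either strand to GAANNTTC (the core of the heat shock element), TGGGCC (the site II element, frequent upstream of genes for organelle and ribosomal proteins) or AAACCCTA (the telo box). MEF8S (AT4G32450), on the plus strand at chr4:15660807-15660926, had the largest rise in prmt5 at heat. AT3G62540, on the minus strand at chr3:23135385-23135504, had a level above WT in prmt5 at 22 °C and at recovery. SVR7 (AT4G16390), on the plus strand at chr4:9257749-9257868, and AT5G46580, on the minus strand at chr5:18899647-18899766, are strongly expressed chloroplast members that fell in prmt5. All 4 genes have 1 exon.
MEF8S: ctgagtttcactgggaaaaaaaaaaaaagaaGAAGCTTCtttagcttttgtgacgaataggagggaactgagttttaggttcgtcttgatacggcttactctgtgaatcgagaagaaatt
AT3G62540: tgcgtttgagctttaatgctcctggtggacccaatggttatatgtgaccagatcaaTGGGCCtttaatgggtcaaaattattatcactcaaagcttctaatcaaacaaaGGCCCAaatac
SVR7: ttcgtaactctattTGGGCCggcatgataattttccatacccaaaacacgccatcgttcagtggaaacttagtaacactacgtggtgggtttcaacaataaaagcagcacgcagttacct
AT5G46580: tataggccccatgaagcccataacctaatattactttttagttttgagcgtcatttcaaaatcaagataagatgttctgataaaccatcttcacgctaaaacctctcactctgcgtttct
The match in MEF8S reads as GAANNTTC on both strands, the matches in AT3G62540 lie on opposite strands, and AT5G46580 has no match in these bases and a TGGGCC farther out in its 250 bases. In 250 bases upstream, TGGGCC was present in 54 members (23.5%) against 16.6% of tested protein-coding genes, GAANNTTC in 30 (13.0%) against 9.38%, and AAACCCTA in 13 (5.65%) against 3.70%. TGGGCC was present in 33.3% of chloroplastic and 18.1% of mitochondrial members. GAANNTTC was present in 11.9% of the members that rose in WT at heat and 9.09% of those that fell, both below the 13.0% of all members. These shares are descriptions of letters, with no test.

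Heat changed most PPR genes, and in WT mostly upward. In prmt5, 104 members rose and 73 fell at heat against 22 °C, beside 45.5% and 36.0% of all genes tested (limma on log2(TPM + 1), adjusted p under 0.05 over all genes). In WT, 151 members rose and 33 fell, beside 49.8% and 25.7%. The median member changed by 0.20 in prmt5 and 0.65 in WT on the log2(TPM + 1) scale, against 0.19 and 0.35 over all genes. In prmt5 the split was thus near that of all genes, while in WT the members rose more often and fell less often than genes at large. Of all members, 101 (43.9%) rose in both genotypes and 32 (13.9%) fell in both, beside 39.4% and 23.0% of all genes.

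TPM is relative to each library's total, and other scalings moved these splits. Median-ratio scaling sets the typical gene's change near 0, and quantile normalization gives all libraries the same distribution of values. The median over all genes, which lay between -0.34 and 0.45 in the comparisons of 2 groups, lay between -0.01 and 0.08 under both. With median-ratio scaling and quantile normalization, in that order here and below, 91 and 109 members rose and 83 and 72 fell in prmt5 at heat, and 115 and 105 rose and 51 and 56 fell in WT. Shares of all genes under these scalings are given only for the differences of responses. Other counts of members under them are thus not set beside genes at large.

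At recovery, 77 members rose and 55 fell in prmt5 against 22 °C, beside 53.4% and 24.7% of all genes tested. In WT, 143 rose and 29 fell, beside 49.8% and 17.3%. The median member changed by 0.11 in prmt5 and 0.49 in WT, against 0.45 and 0.35 over all genes. The share that rose in prmt5, 33.5%, was below that of all genes, and in WT the share of 62.2% was above it. The other scalings turned the prmt5 split round, to 29 and 20 members that rose and 107 and 126 that fell, and gave 89 and 60 that rose and 46 and 62 that fell in WT, which was then near even under quantile normalization. Heat and recovery share the 22 °C libraries of each genotype, so agreement between them is not a result.

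**Figure D1:**
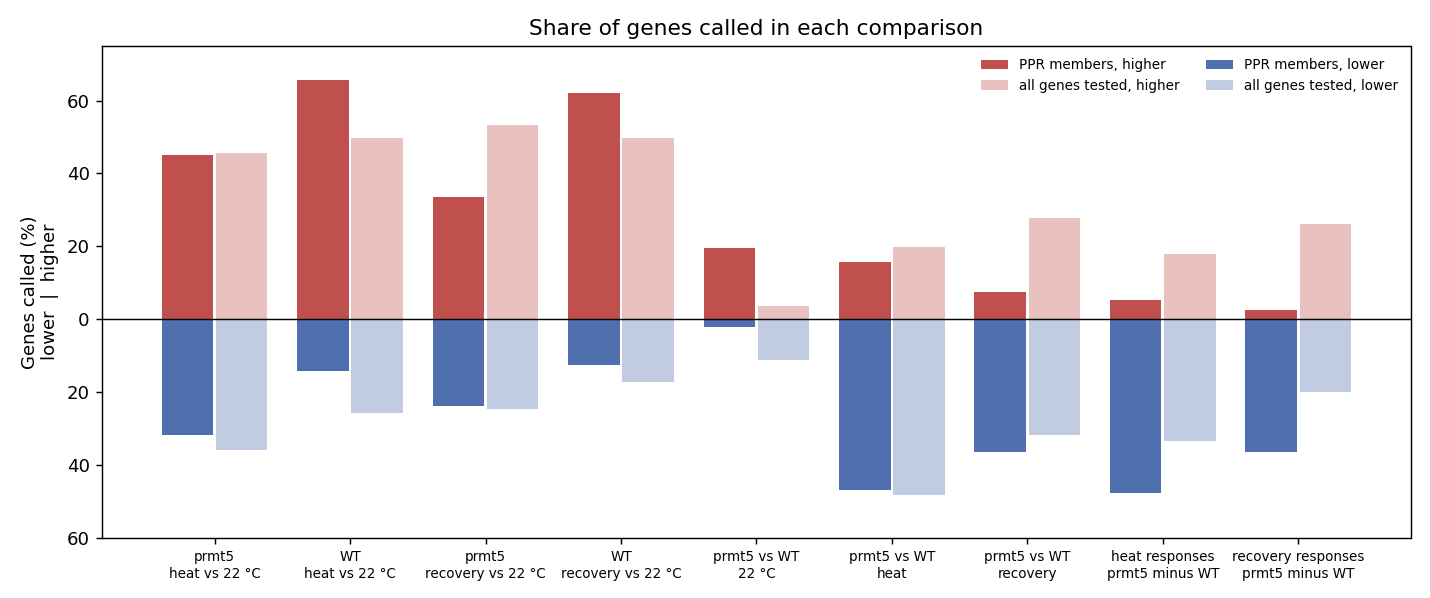
Share of genes called higher (upward bars) or lower (downward bars) in each comparison, in percent, for the 230 PPR members (dark) and all 21831 genes tested (pale), at an adjusted p under 0.05 from limma. The members exceed the pale upward bars in both WT responses and in prmt5 over WT at 22 °C, and have the shorter upward bars in both differences of responses at the right.

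The organelle named in Swiss-Prot divided the members. Of the 33 chloroplastic members, 3 rose and 24 fell at heat in prmt5, and 11 rose and 15 fell in WT. At recovery 1 rose and 26 fell in prmt5, and 6 rose and 17 fell in WT. Of the 72 mitochondrial members, 37 rose and 16 fell at heat in prmt5, and 49 rose and 6 fell in WT. At recovery 32 rose and 9 fell in prmt5, and 56 rose and 2 fell in WT. Over all genes tested, 45.5% rose and 36.0% fell at heat in prmt5, and 49.8% and 25.7% in WT. The shares at recovery were 53.4% and 24.7% in prmt5 and 49.8% and 17.3% in WT. The mitochondrial share that rose in prmt5 was thus a little above that of all genes at heat and below it at recovery. The median chloroplastic member changed by -0.98 in prmt5 and -0.31 in WT, at heat and at recovery alike, while the median mitochondrial member changed by 0.38 and 0.69 at heat and by 0.27 and 0.62 at recovery. Falls outnumbered rises among chloroplastic members in both genotypes and both conditions, also under the other scalings. In prmt5 at heat, for example, 3 and 3 rose and 25 and 24 fell under them. Among mitochondrial members rises outnumbered falls in 3 of the 4 comparisons under the other scalings. The order turned round in prmt5 at recovery, with 15 and 12 that rose and 25 and 31 that fell. The difference between the organelle classes itself was not tested.

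**Figure D2:**
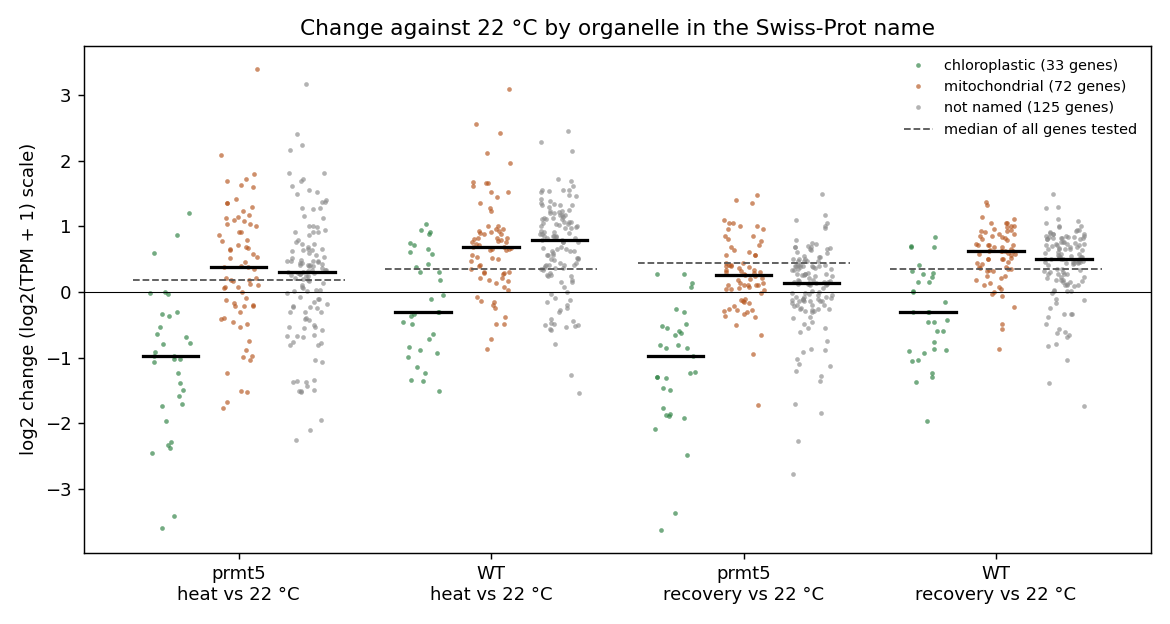
Change of every PPR member against 22 °C on the log2(TPM + 1) scale, by genotype and condition, with members split by the organelle in the Swiss-Prot name and spread sideways at random. Black bars are class medians and dashed lines the median of all genes tested. The chloroplastic median is -0.98 in both prmt5 responses and -0.31 in both WT responses.

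Summed over its 33 genes, the chloroplastic class had 733, 833 and 791 TPM at 22 °C, 359, 282 and 277 TPM at heat and 254, 253 and 287 TPM at recovery in the 3 prmt5 libraries of each group. In WT it had 677, 671 and 759 TPM at 22 °C, 640, 513 and 479 TPM at heat and 451, 457 and 543 TPM at recovery. All prmt5 sums at heat and recovery lay below all WT sums of the same condition and below all sums at 22 °C. These sums follow the strongest expressed members most. AT5G46580 alone averaged 153 of a mean of 785 TPM at 22 °C and 27.4 of 306 TPM at heat in prmt5. The mitochondrial class had 463, 598 and 616 TPM at 22 °C, 766, 664 and 667 TPM at heat and 629, 618 and 641 TPM at recovery in prmt5. The WT libraries had 476, 458 and 469 TPM at 22 °C, 765, 778 and 784 TPM at heat and 793, 799 and 744 TPM at recovery. At recovery all prmt5 sums lay below all WT sums, and in both genotypes the sums at heat lay above those at 22 °C. At 22 °C the first prmt5 library had 463 TPM, inside the WT range, and the other prmt5 libraries had more than any WT library.

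**Figure D3:**
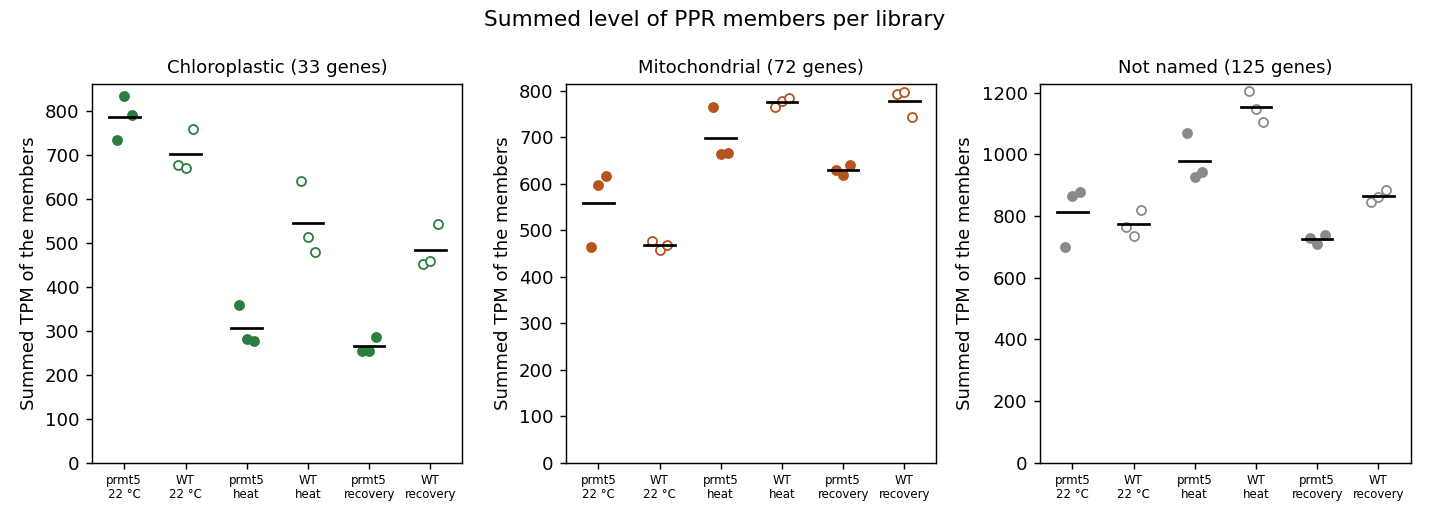
Summed TPM of the chloroplastic, mitochondrial and unplaced members in each library (points), with group means (bars), prmt5 filled and WT open, on axes that start at 0. Chloroplastic sums in prmt5 average 306 TPM at heat and 264 TPM at recovery, against 544 and 484 TPM in WT.

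Among members that act on chloroplast mRNA, MRL1, which stabilises the rbcL transcript for the large subunit of Rubisco, had the deepest fall in prmt5 at heat. MRL1 had 47.2, 54.7 and 60.5 TPM at 22 °C, 5.96, 2.76 and 2.63 TPM at heat and 4.78, 4.08 and 4.24 TPM at recovery in prmt5. Its WT levels were 58.9, 57.9 and 66.8 TPM at 22 °C, 31.8, 20.7 and 19.4 TPM at heat and 19.5, 21.4 and 29.0 TPM at recovery. The genotypes overlapped at 22 °C and were far apart after it. At heat MRL1 changed by -3.59 ± 0.23 in prmt5 and -1.35 ± 0.23 in WT (log2 change ± SE, limma, adjusted p = 4.9e-10 and 5.8e-05), and the changes differed by -2.24 ± 0.32 (adjusted p = 4.4e-05). At recovery the difference between the changes was -1.98 ± 0.32 (adjusted p = 0.00017).

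DYW1 and CRR4 work as a pair at a single chloroplast editing site, the start codon of ndhD, where CRR4 binds the RNA and DYW1 brings the DYW domain that CRR4 lacks. DYW1 had 37.8, 33.3 and 28.3 TPM at 22 °C, 3.60, 1.04 and 2.49 TPM at heat and 1.72, 1.6 and 1.96 TPM at recovery in prmt5. In WT it had 35.03, 34.3 and 40.1 TPM at 22 °C, 24.5, 11.8 and 11.04 TPM at heat and 7.61, 7.08 and 11.7 TPM at recovery. DYW1 fell in both genotypes and lay lower in every prmt5 library than in any WT library at heat and at recovery, with a difference of responses of -2.16 ± 0.41 at heat (limma, adjusted p = 0.00045) and -1.66 ± 0.41 at recovery (adjusted p = 0.0039). CRR4 was near the lower limit of level, with 3.34 ± 0.115, 0.117 ± 0.0551 and 0.177 ± 0.127 TPM in prmt5 and 2.24 ± 0.246, 1.65 ± 0.464 and 0.730 ± 0.0700 TPM in WT (SD, n = 3) at 22 °C, heat and recovery. CRR4 fell at heat by 1.96 ± 0.15 in prmt5 (adjusted p = 3.9e-09), and in WT its change of -0.31 ± 0.15 did not pass (adjusted p = 0.07). The difference of these responses passed, at -1.65 ± 0.21 (adjusted p = 1.5e-05). CRR4 is described as the partner of DYW1.

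The strongest expressed member was AT5G46580, a chloroplastic member without an E or DYW domain. It had 134, 172 and 155 TPM at 22 °C, 34.9, 23.2 and 24.1 TPM at heat and 26.6, 24.2 and 29.2 TPM at recovery in prmt5. WT seedlings had 98.0, 97.3 and 114 TPM at 22 °C, 86.9, 73.3 and 65.6 TPM at heat and 76.2, 80.1 and 92.4 TPM at recovery. The order of the genotypes turned between conditions, with all prmt5 libraries above all WT libraries at 22 °C and below them at heat and recovery. The AT5G46580 responses differed by -2.01 ± 0.21 at heat and -2.16 ± 0.21 at recovery (limma, adjusted p = 3.2e-06 and 2.8e-06). Its excess in prmt5 at 22 °C, 0.57 ± 0.15 (adjusted p = 0.019), was not called without prmt5 library 2 (0.48) or without WT library 1 or 2 (0.53 each), or with only the 22 °C groups in the fit.

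SVR7, whose loss suppresses leaf variegation and impairs the chloroplast ATP synthase, moved in another order. SVR7 had 68.5, 86.7 and 80.9 TPM at 22 °C, 38.7, 33.1 and 27.7 TPM at heat and 20.3, 19.6 and 20.2 TPM at recovery in prmt5. In WT it had 55.0, 54.8 and 66.4 TPM at 22 °C, 29.4, 25.1 and 24.0 TPM at heat and 44.9, 46.9 and 50.4 TPM at recovery. SVR7 fell at heat in both genotypes, by 1.23 ± 0.12 in prmt5 and 1.14 ± 0.12 in WT on the log2 scale, and the difference of -0.09 ± 0.17 did not pass (limma, adjusted p = 0.68). At recovery every prmt5 library was below every prmt5 heat library, while every WT library was above every WT heat library, and the responses against 22 °C differed by -1.61 ± 0.17 (adjusted p = 5.4e-06).

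Of the 7 listed members for chloroplast splicing, stability and translation, 7 fell in prmt5 at heat, beside 36.0% of all genes. In WT 3 rose and 4 fell, beside 49.8% and 25.7%. Those that rose in WT were PPR4 (known in maize for trans-splicing of rps12), LPE1 (linked to translation of psbA) and EMB175 (needed for embryo development). PPR4 had 25.8, 18.8 and 19.7 TPM in prmt5 and 70.9, 58.6 and 56.8 TPM in WT at heat, and LPE1 had 12.6, 8.90 and 10.01 TPM in prmt5 and 29.6, 26.5 and 25.9 TPM in WT. In both genes every prmt5 library at heat was below every WT library, and the responses differed by -1.18 ± 0.19 for PPR4 and -1.57 ± 0.16 for LPE1 (limma, adjusted p = 0.00014 and 3e-06). CRP1, which in maize aids processing and translation of cytochrome b6f and photosystem I transcripts, averaged 10.3 ± 2.59 TPM in prmt5 and 23.1 ± 3.04 TPM in WT at heat (SD, n = 3), and its responses differed by -0.88 ± 0.23 (adjusted p = 0.0053). At recovery 7 of the 7 were lower in prmt5 than in WT, beside 31.9% of all genes. The members AT4G18520 and AT5G46580 were dropped from this list because their listed symbols were not matched.

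Of the 5 listed members for chloroplast RNA editing, 4 fell in prmt5 at heat, beside 36.0% of all genes. In WT 0 were called, beside 49.8% of all genes that rose and 25.7% that fell. LPA66, which edits psbF of photosystem II, had 6.71, 5.64 and 5.63 TPM in prmt5 and 15.3, 12.02 and 10.8 TPM in WT at heat. The groups did not overlap, and the LPA66 responses differed by -1.13 ± 0.19 (limma, adjusted p = 0.00014). RARE1, which edits the accD transcript for fatty acid synthesis, averaged 4.09 ± 0.497 TPM in prmt5 and 6.29 ± 0.992 TPM in WT at heat (SD, n = 3) and was higher in prmt5 than in WT at 22 °C, at 7.21 ± 0.759 against 4.90 ± 0.994 TPM (adjusted p = 0.049). CRR22, which edits ndhB and other transcripts, was called in none of the comparisons of 2 groups, as were AT1G02420, AT1G69290 and AT5G61400 among the 230.

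AT1G79080, a chloroplastic member outside the lists, had 1.73, 2.04 and 2.37 TPM at heat and 11.6, 17.5 and 16.0 TPM at 22 °C in prmt5, and 3.14, 2.95 and 3.81 TPM at heat and 11.2, 10.3 and 12.2 TPM at 22 °C in WT. It fell at heat by 2.38 ± 0.14 in prmt5 and 1.51 ± 0.14 in WT (limma, adjusted p = 1.5e-10 and 6.2e-08), the largest fall of any named member in WT. At recovery AT1G79080 averaged 9.48 ± 0.637 TPM in prmt5, still below 22 °C (adjusted p = 0.00088), and 13.8 ± 0.864 TPM in WT (SD, n = 3). AT5G10690, with no organelle named, averaged 23.9 ± 3.10, 7.74 ± 1.83 and 2.6 ± 0.14 TPM in prmt5 and 28.0 ± 3.28, 28.2 ± 4.64 and 7.71 ± 0.451 TPM in WT at 22 °C, heat and recovery. It was lowest at recovery in both genotypes, and its responses differed by -1.53 ± 0.21 at heat (adjusted p = 3.4e-05). AT5G10690 overlaps AT5G10680 on the opposite strand.

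**Figure D4:**
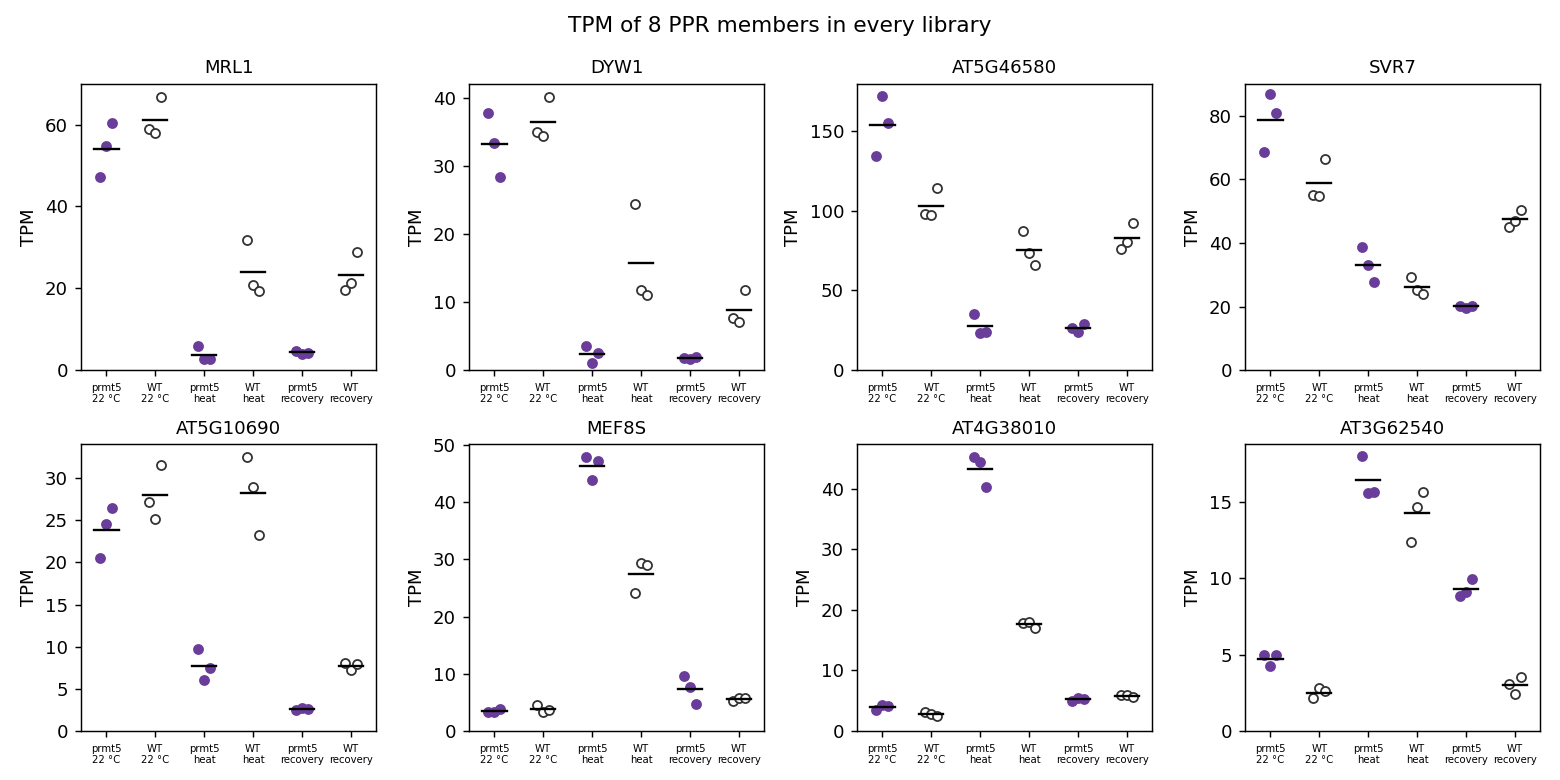
TPM of 8 PPR members in every library (points), with group means (bars), prmt5 filled and WT open, on axes that start at 0. MRL1, DYW1, AT5G46580, SVR7 and AT5G10690 lie lower in prmt5 than in WT at recovery, MEF8S and AT4G38010 rise most in prmt5 at heat, and AT3G62540 stays above WT at recovery in prmt5.

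Of the 13 members listed for mitochondrial RNA editing, 6 rose and 0 fell at heat in prmt5, and 11 rose and 1 fell in WT. At recovery 4 rose in prmt5 and 12 in WT, and none fell in either. The share that rose in prmt5 at heat, 46.2%, was near the 45.5% of all genes. In WT at heat 49.8% of all genes rose, and at recovery 53.4% in prmt5 and 49.8% in WT. MEF8S, a DYW editing factor, had the largest rise in prmt5. MEF8S had 3.26, 3.32 and 3.86 TPM at 22 °C, 47.9, 43.9 and 47.3 TPM at heat and 9.66, 7.70 and 4.77 TPM at recovery in prmt5. The WT libraries had 4.53, 3.27 and 3.74 TPM at 22 °C, 24.1, 29.4 and 29.0 TPM at heat and 5.23, 5.81 and 5.69 TPM at recovery. All libraries at heat were far above all others in both genotypes, and at heat all prmt5 libraries were above all WT libraries. MEF8S rose by 3.40 ± 0.17 in prmt5 and 2.56 ± 0.17 in WT on the log2(TPM + 1) scale (limma, adjusted p = 3.1e-11 and 1.8e-09), the largest rise of any member in prmt5, and the rises differed by 0.85 ± 0.24 (adjusted p = 0.0082). MEF8S overlaps AT4G32460 on the opposite strand.

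COD1, needed for editing of coxII, averaged 9.75 ± 0.621 TPM in prmt5 and 4.66 ± 0.824 TPM in WT at heat (SD, n = 3), a difference of 0.93 ± 0.15 (limma, adjusted p = 5.8e-05). GRP23, first known from embryo arrest and acting in mitochondrial editing, averaged 18.4 ± 0.982 TPM at recovery and 10.8 ± 1.75 TPM at 22 °C in prmt5 and 19.6 ± 1.63 and 8.54 ± 0.552 TPM in WT, and rose in both (adjusted p = 0.00011 and 2.9e-06). MEF10, which edits nad2, had a lower response to heat in prmt5 than in WT. It had 2.40, 2.40 and 2.13 TPM in prmt5 and 4.15, 3.48 and 3.98 TPM in WT at heat, with 2.88 ± 0.543 and 1.82 ± 0.240 TPM at 22 °C, and its responses differed by -1.01 ± 0.17 (adjusted p = 0.00022). AHG11, which edits nad4, likewise had 1.49 ± 0.484 TPM in prmt5 and 3.88 ± 0.676 TPM in WT at heat, a difference of responses of -1.16 ± 0.25 (adjusted p = 0.0013).

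Of the 5 listed members for mitochondrial splicing, transcript ends and translation, PPR336 and PNM1 are strongly expressed and associated with translation in mitochondria. PPR336 had 44.7, 59.0 and 62.4 TPM at 22 °C, 18.1, 14.4 and 14.3 TPM at heat and 37.3, 37.7 and 40.6 TPM at recovery in prmt5. Its WT levels were 46.8, 44.8 and 46.9 TPM at 22 °C, 28.2, 27.7 and 27.9 TPM at heat and 75.8, 80.1 and 63.2 TPM at recovery. PPR336 fell at heat in both genotypes, and at recovery it fell in prmt5 (-0.50 ± 0.12) and rose in WT (0.64 ± 0.12), a difference of -1.14 ± 0.17 (limma, adjusted p = 7.6e-05). PNM1 averaged 53.9 ± 1.96 TPM in prmt5 and 83.2 ± 5.63 TPM in WT at recovery (SD, n = 3), and its responses differed by -0.81 ± 0.17 (adjusted p = 0.0012). BIR6, a splicing factor for nad7, rose at heat in both, to 16.9 ± 0.847 TPM in prmt5 and 11.7 ± 0.530 TPM in WT, against 6.80 ± 0.967 and 5.64 ± 0.248 TPM at 22 °C. BIR6 and OTP87 act in mitochondria by their lists but are called chloroplastic in Swiss-Prot.

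Large rises at heat were also seen in members outside the lists as kept. AT4G38010, with an E domain, had 45.3, 44.5 and 40.3 TPM in prmt5 and 17.8, 18.01 and 17.0 TPM in WT at heat, against 3.92 ± 0.472 and 2.83 ± 0.330 TPM at 22 °C (SD, n = 3). Its rises of 3.17 ± 0.10 and 2.28 ± 0.10 differed by 0.89 ± 0.14 (limma, adjusted p = 7.1e-05). AT5G08510 averaged 24.4 ± 0.911 TPM in prmt5 and 14.3 ± 1.92 TPM in WT at heat, with rises that differed by 0.77 ± 0.18 (adjusted p = 0.0019). AT1G56690 averaged 7.36 ± 1.41 TPM in prmt5 and 2.94 ± 0.136 TPM in WT at heat, with rises that differed by 1.09 ± 0.30 (adjusted p = 0.0064), and it overlaps AT1G56700 on the same strand. AT2G02750 rose in both, to 11.4 ± 0.539 TPM in prmt5 and 11.2 ± 0.339 TPM in WT, against 1.35 ± 0.368 and 1.21 ± 0.211 TPM at 22 °C, and its difference of -0.05 ± 0.18 did not pass (adjusted p = 0.83). AT2G02750 overlaps AT2G02741 on the same strand and AT2G02740 and AT2G04295 on the opposite strand.

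AT5G04780, a mitochondrial DYW member, had the largest rise of any member in WT at heat and a smaller one in prmt5. It had 10.9, 10.7 and 10.5 TPM in prmt5 and 19.0, 19.8 and 15.9 TPM in WT at heat. At 22 °C it had 2.48, 2.85 and 3.03 TPM in prmt5 and 1.85, 1.26 and 0.750 TPM in WT. The prmt5 libraries were thus above WT at 22 °C and below WT at heat, without overlap in either, and the rises of 1.63 ± 0.15 and 3.09 ± 0.15 differed by -1.46 ± 0.21 (limma, adjusted p = 5e-05). EMB2217, a mitochondrial member needed for embryo development, averaged 8.08 ± 1.74 TPM in prmt5 and 19.2 ± 2.47 TPM in WT at heat, with responses that differed by -1.58 ± 0.19 (adjusted p = 1.2e-05).

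At recovery few members stood well above 22 °C in prmt5. AT1G18900 averaged 25.7 ± 1.95 TPM in prmt5 and 19.8 ± 0.705 TPM in WT at recovery, against 8.54 ± 0.811 and 10.6 ± 0.310 TPM at 22 °C (SD, n = 3), with responses that differed by 0.65 ± 0.12 (limma, adjusted p = 0.00037). AT1G26900 averaged 12.7 ± 0.495 TPM in prmt5 and 7.81 ± 1.29 TPM in WT at recovery, with responses that differed by 0.62 ± 0.19 (adjusted p = 0.013), and AT1G74750 averaged 11.7 ± 2.14 and 7.16 ± 0.841 TPM, with a difference of 0.60 ± 0.19 (adjusted p = 0.016). Together with AT3G62540 these are 4 of the 6 members whose recovery response was higher in prmt5.

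AT3G62540 and AT5G14820 are near copies of each other and are mitochondrial by name. AT3G62540 shares 88.3% of its 50-base windows with another gene and AT5G14820 shares 90.9%, so the division of reads between them is uncertain. AT3G62540 had 8.87, 9.12 and 9.99 TPM in prmt5 and 3.07, 2.40 and 3.54 TPM in WT at recovery, without overlap, a difference of 1.38 ± 0.12 (limma, adjusted p = 3.6e-07). AT5G14820 had 3.13, 3.17 and 2.55 TPM in prmt5 and 0.410, 0.0200 and 0 TPM in WT at recovery, a difference of 1.8 ± 0.31 (adjusted p = 0.00016). Both were thus higher in prmt5. AT5G14820 was below the level of the naming rule and was chosen as the copy of AT3G62540.

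At 22 °C, 45 members were higher and 5 lower in prmt5 than in WT, beside 3.64% and 11.3% of all genes tested, and the median difference was 0.20 against -0.10 over all genes. The members higher in prmt5 were 19.6% of the 230, whereas genes at large were more often lower. All prmt5 libraries lay above all WT libraries for 85 members, beside 8.79% of all genes, and below them for 16, beside 22.5%. The other scalings gave 93 and 93 higher and 4 and 2 lower. The count was sensitive to the libraries, with 13 higher without prmt5 library 2, 19 and 21 without WT library 2 or 1, 29 without prmt5 library 3 and 59 without prmt5 library 1. The members lower in prmt5 then numbered 1 to 6. With only the 22 °C groups in the fit 10 were higher and 2 lower, beside 1.52% and 3.93% of all genes.

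The members higher in prmt5 at 22 °C were mostly genes without introns. Of the 130 members with 1 exon, 39 were higher and 0 lower (median 0.29), and of the 100 with 2 or more exons, 6 were higher and 5 lower (median 0.05). Among all genes tested with 1 exon, 8.12% were higher and 3.51% lower, and among those with 2 or more, 2.85% and 13.3%. The split between exon classes stood under the other scalings, with 71 and 69 of the 1-exon members higher and 0 lower, and 22 and 24 of the others higher and 4 and 2 lower. Members with an E or DYW domain gave 23 higher and 0 lower of 83, and those without gave 22 higher and 5 lower of 147. The splits by domain and by exons overlap, since 69.9% of members with such a domain have 1 exon, against 49.0% of those without. The differences between these classes were not tested.

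**Figure D5:**
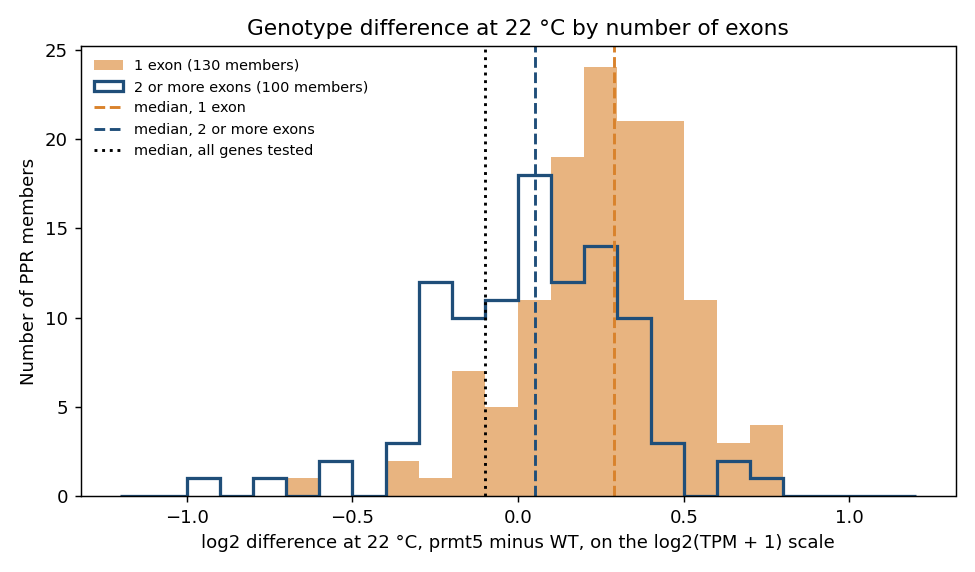
Number of PPR members by their log2 difference at 22 °C, prmt5 minus WT, for members with 1 exon (filled) and with 2 or more (outline), with dashed lines at the class medians and a dotted line at the median of all genes tested. The medians are 0.29, 0.05 and -0.10.

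AT4G18840, with an E domain, had the largest excess on the log2(TPM + 1) scale, with 4.35, 6.02 and 4.97 TPM in prmt5 and 2.64, 1.97 and 3.01 TPM in WT at 22 °C. The groups did not overlap, and the difference was 0.79 ± 0.15 (limma, adjusted p = 0.003). AT5G61370 averaged 10.2 ± 2.26 TPM in prmt5 and 5.44 ± 0.390 TPM in WT (SD, n = 3), and AT4G38150 averaged 17.4 ± 3.76 and 10.5 ± 0.905 TPM. None of these 3 was called with only the 22 °C groups in the fit. AT4G18840 overlaps AT4G06850 on the same strand and AT4G18830 on the opposite strand.

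The 5 members lower in prmt5 at 22 °C were AT1G64430, AT5G43822, AT5G55840, AT1G05670 and AT1G18900, with differences of -0.92, -0.77, -0.52, -0.50 and -0.29. AT1G64430 and AT5G43822 have 13 and 7 exons and no annotated PPR domain. AT1G64430 had 14.6, 15.9 and 20.5 TPM in prmt5 and 31.1, 29.9 and 37.7 TPM in WT at 22 °C, without overlap (limma, adjusted p = 0.0017), and it stayed lower at heat and at recovery, at 7.78 ± 1.79 against 29.5 ± 3.29 TPM and 6.40 ± 0.99 against 15.5 ± 2.00 TPM (SD, n = 3). AT5G43822 overlaps AT5G43820 on the same strand and was not called without prmt5 library 1 (-0.46), without WT library 1 (-0.66) or with only the 22 °C groups in the fit.

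At heat, 36 members were higher and 108 lower in prmt5 than in WT, beside 19.9% and 48.3% of all genes tested, with medians of -0.27 and -0.34. Both shares lay near the background. The other scalings turned this split round, to 86 and 114 higher and 68 and 37 lower, so the direction for the whole set rests on the scaling. Among chloroplastic members 3 were higher and 23 lower, and 7 and 9 were higher and 13 and 11 lower under the other scalings. At recovery, 17 members were higher and 84 lower in prmt5 than in WT, beside 27.8% and 31.9%, with medians of -0.19 and -0.04. The other scalings gave 26 and 37 higher and 69 and 61 lower. At recovery 0 chloroplastic members were higher and 23 lower, with 1 and 2 higher and 20 and 18 lower under the other scalings. Of the 13 members with an EMB symbol, from embryo-defective mutants, 0 were higher and 10 lower both at heat and at recovery. These EMB counts are on the TPM scale, and those under the other scalings are not given here.

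AT5G24060, which also has no annotated PPR domain, was lower in prmt5 than in WT at heat and recovery and not called at 22 °C (limma, adjusted p = 0.2). It had 11.4, 11.99 and 10.3 TPM in prmt5 and 30.7, 32.3 and 35.5 TPM in WT at recovery, without overlap, a difference of -1.47 ± 0.12 (limma, adjusted p = 1.5e-07). Of the 7 members without such a domain, 6 fell and 1 rose in prmt5 at heat, beside 36.0% and 45.5% of all genes. In WT 4 fell and 1 rose, beside 25.7% and 49.8%.

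The responses themselves were compared with an interaction term, the change in prmt5 minus the change in WT. At heat the prmt5 response was higher for 12 members and lower for 110, beside 18% and 33.3% of all genes, with medians of -0.45 and -0.19. At recovery it was higher for 6 and lower for 84, beside 26.1% and 20.1%, with medians of -0.39 and 0.08. The other scalings gave 6 and 6 members higher and 113 and 93 lower at recovery, beside 24.6% and 23.5% of all genes higher and 22.5% and 24.4% lower. At heat they gave 24 and 35 higher and 89 and 53 lower, with medians of -0.25 and -0.02, beside 27.4% and 25% of all genes higher and 25.7% and 23.8% lower. Under quantile normalization the members with the lower prmt5 response at heat were 23.0% of the 230, about the share of all genes. Since the members above WT at 22 °C enter both interactions through the shared 22 °C libraries, the interaction and the 22 °C difference are not independent of each other. Of the 33 chloroplastic members, 24 were lower and 0 higher at heat and 22 were lower and 0 higher at recovery, and of the 72 mitochondrial members 29 were lower and 5 higher at heat and 24 were lower and 4 higher at recovery.

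At heat 10 members (4.35%) fell in prmt5 and rose in WT, near the share of 3.16% over all genes, and 0 did the reverse, beside 0.724% of all genes. The 10 were AT1G12620, AT1G68930, AT1G74580, AT2G42920, AT3G16010, AT3G60050, AT4G18520, EMB175, LPE1 and PPR4. At recovery 12 (5.22%) fell in prmt5 and rose in WT, beside 2.08% of all genes, and 0 did the reverse, beside 0.550%. The 12 include AT4G18520, AT4G35850, DOT4, EMB2217, PPR336 and PPR596. AT4G18520, a chloroplastic member, did so in both conditions. AT4G18520 had 15.2, 16.9 and 14.7 TPM at 22 °C, 14.1, 10.5 and 11.9 TPM at heat and 9.13, 9.94 and 12.1 TPM at recovery in prmt5. In WT it had 9.88, 9.95 and 9.37 TPM at 22 °C, 19.6, 19.0 and 17.6 TPM at heat and 14.4, 15.8 and 19.3 TPM at recovery. Its responses differed by -1.22 ± 0.17 at heat and -1.25 ± 0.17 at recovery (limma, adjusted p = 4.3e-05 and 5.1e-05).

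AT4G35850, a mitochondrial member with 13 exons, differed most at heat among mitochondrial members. It had 17.1, 11.5 and 12.2 TPM in prmt5 and 44.7, 43.4 and 42.6 TPM in WT at heat, against 30.5, 44.9 and 48.7 TPM and 39.2, 35.1 and 32.0 TPM at 22 °C. The genotypes overlapped at 22 °C and not at heat, and the responses differed by -1.82 ± 0.21 (limma, adjusted p = 8.5e-06). AT4G35850 overlaps AT4G35860 on the opposite strand. DOT4, which edits rpoC1 of the plastid RNA polymerase and shapes leaves, averaged 4.63 ± 0.417 TPM in prmt5 and 6.33 ± 0.110 TPM in WT at recovery, against 7.72 ± 1.21 and 4.88 ± 0.671 TPM at 22 °C (SD, n = 3), with responses that differed by -0.95 ± 0.16 (adjusted p = 0.00028).

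The 216 PPR genes outside the description rule were counted in the same way, with 81 that rose and 65 that fell in prmt5 at heat and 140 that rose and 26 that fell in WT, beside 45.5% and 36.0% of all genes in prmt5 and 49.8% and 25.7% in WT. They share the libraries with the members and are no independent support. One of them, ELI1, which edits ndhB in chloroplasts, was listed at 0 in all 3 prmt5 libraries at recovery, beside 3.76, 2.86 and 4.44 TPM in WT, and at 58.7, 52.0 and 54.2 TPM in prmt5 and 38.7, 36.4 and 36.1 TPM in WT at heat. GUN1, a chloroplast PPR protein of plastid-to-nucleus signalling that is outside the rule, averaged 62.7 ± 1.48 TPM in prmt5 and 95.6 ± 8.10 TPM in WT at recovery (SD, n = 3), a difference of -0.60 ± 0.10 (limma, adjusted p = 0.00012). The protein-only RNase P genes PRORP1, PRORP2 and PRORP3, also outside it, were all lower in prmt5 than in WT at recovery, with log2 differences of -0.98, -1.14 and -0.67. PRORP2 was already lower at 22 °C, by -0.98 (limma, adjusted p = 0.0013), and its recovery responses did not differ (-0.16, adjusted p = 0.6). PRORP1 and PRORP3 were not called at 22 °C (-0.10 and -0.11).

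Other organelle RNA proteins that work beside PPR proteins were listed as 47 tested genes, the editing cofactors of the MORF and ORRM families, intron splicing cofactors, ribonucleases and organelle transcription factors. In prmt5 15 rose and 26 fell at heat, beside 45.5% and 36.0% of all genes, and 9 rose and 31 fell at recovery, beside 53.4% and 24.7%. In WT 19 rose and 14 fell at heat, beside 49.8% and 25.7%, and 14 rose and 24 fell at recovery, beside 49.8% and 17.3%. At recovery 4 were higher and 34 lower in prmt5 than in WT, beside 27.8% and 31.9%.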

How the data were processed

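RNA of whole seedlings (oligo-dT selection and a TruSeq kit, per the labels' protocols) was sequenced in 18 libraries of 6 groups, grouped by their labels. The values used are TPM per gene as deposited by the authors, who per the submitters' processing notes used RSEM and TAIR10, with no version stated. The table also carries 6 columns of group means by the authors, at most 3.3e-05 away from those computed here. TPM keeps no depth, so no count model or counting interval was used. Whether the counting used strand is not given in the sources used here.

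Log2 values with a pseudocount of 1, which understates changes of low genes, were modelled for each of 21831 genes that averaged 1 TPM or more. limma 3.58.1 in R 4.3.3 fitted 6 group means with 12 residual degrees of freedom (lmFit, contrasts.fit, eBayes with trend), and two-sided p-values were corrected over all of these genes (Benjamini-Hochberg, threshold 0.05). The fit was tested on simulated data. Tables and plots were made with Python 3.11.15, pandas 2.3.3, numpy 2.4.6 and matplotlib 3.10.9.

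Gene symbols, exons, overlaps and promoters are from the RefSeq annotation of TAIR10.1, where 99.4% of genes with a transcript have one of the deposited length. Domains and Swiss-Prot names, and so the organelle classes, are from the deposited table. Of 92 PPR entries in the role lists, 73 had a symbol that the annotation or the deposited table gives, 30 of them members, and 19 were dropped.

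The naming rule took, per comparison, the 4 highest and 4 lowest changes among members that passed the test, with at least 5 TPM in the higher group and groups that do not overlap (for the differences of responses, 5 TPM in any group and no overlap in at least 1 response). It added the 3 most expressed members, those nearest the level limit, GUN1, the PRORP genes and up to 3 members per role list. Members named for another reason, such as their function or opposite responses, were chosen after their values were seen. The members and all lists were chosen with earlier results of these data known. Each choice was varied in turn, by pseudocounts of 0.1 and 5, by a limit of 5 TPM or no limit, by median-ratio scaling or quantile normalization, by leaving out organelle and ribosomal RNA genes, by fitting only the compared groups, by a replicate block and by leaving out each library.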

Additional observations from a re-analysis of the deposited data

Results flagged for a closer look

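The difference between the genotypes' responses was tested for every gene with an interaction term (limma, adjusted over all genes), and it passed for many members. At heat the prmt5 response was higher than that of WT for 12 members and lower for 110, beside 18% and 33.3% of all genes. Median-ratio scaling gave 24 higher and 89 lower. Quantile normalization gave 35 higher and 53 lower, and the share of members with the lower response was then about that of all genes. The named members with the higher prmt5 response were AT1G56690 (1.09), AT4G38010 (0.89), MEF8S (0.85) and AT5G08510 (0.77), as differences of log2 changes. Those with the lower prmt5 response were MRL1 (-2.24), DYW1 (-2.16), AT5G46580 (-2.01) and AT4G35850 (-1.82).

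At recovery the prmt5 response was higher for 6 members and lower for 84, beside 26.1% and 20.1% of all genes. The named members with the higher prmt5 response were AT3G62540 (0.67), AT1G18900 (0.65), AT1G26900 (0.62) and AT1G74750 (0.60). Those with the lower prmt5 response were AT5G46580 (-2.16), MRL1 (-1.98), DYW1 (-1.66) and SVR7 (-1.61). MRL1, DYW1 and AT5G46580 appear in both lists, which share the 22 °C libraries.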

How the results depend on the processing

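Pseudocounts of 0.1 and 5, no filter on low values and leaving out organelle and ribosomal RNA genes kept all counts of members within 1.5 times. A minimum mean TPM of 5 left 120 members to test, and gave 64 higher and 45 lower in prmt5 at heat, 76 higher in WT at heat, 47 higher in prmt5 and 72 higher in WT at recovery, 28 higher and 3 lower in prmt5 over WT at 22 °C, 54 lower both at heat and at recovery, and 55 and 53 lower in the differences of responses. Median-ratio scaling gave 51 lower in WT at heat, 29 higher and 107 lower in prmt5 at recovery, 89 higher and 46 lower in WT at recovery, 93 higher in prmt5 over WT at 22 °C, 86 higher and 68 lower at heat, 26 higher at recovery, and 24 higher in the difference of responses at heat. Quantile normalization gave 56 lower in WT at heat, 20 higher and 126 lower in prmt5 at recovery, 60 higher and 62 lower in WT at recovery, 93 higher and 2 lower in prmt5 over WT at 22 °C, 114 higher and 37 lower at heat, 37 higher at recovery, and 35 higher and 53 lower in the difference of responses at heat. Leaving out 1 library at a time gave 13 to 59 higher and 1 to 6 lower in prmt5 over WT at 22 °C, and other counts stayed within 1.5 times. With only the groups compared in the fit, 10 were higher and 2 lower at 22 °C. The cause of these moves was not tested, apart from the smaller number of members behind the minimum of 5 TPM. GUN1 in prmt5 over WT at heat reversed to 0.10 with median-ratio scaling, and PRORP3 reversed to 0.05 with quantile normalization, both without passing the test. Apart from the counts of members, 18 results were weaker and 13 stronger in at least 1 setting, and only a part of the weaker ones is named above.

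Replicate numbers did not pair the libraries as a whole (same-numbered correlations of -0.195 to 0.189 over 45 pairs, of which 12 were the best match). At heat, however, each prmt5 library matched the same-numbered WT library best, at 0.189, 0.0974 and 0.115. The same held between prmt5 at 22 °C and WT at heat. With the replicate number as a block, 36 members were higher and 4 lower in prmt5 over WT at 22 °C. The other counts of members then stayed within 1.5 times. TPM gives no depth, so what depth limits cannot be stated.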
